A study of Mus musculus with 12 samples.

Results

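The chaperone and protein folding genes of the mouse small intestine were represented by 68 probes with 54 gene names, among 20281 probes of the array that are not controls. They were found by name in the annotation deposited with the 12 h arrays, from the names of the heat shock proteins (Hsp), the J-domain proteins (Dnaja, Dnajb and Dnajc), the chaperonin subunits (Tcp1 and Cct2 to Cct8), the protein disulfide isomerases (Pdi and P4hb), the peptidyl-prolyl isomerases (Ppia to Ppih and Fkbp), the lectin chaperones Canx and Calr, and the regulator Xbp1. A single probe stood for 44 of the names, and 10 names had more. By gene number, 67 of the probes were found in RefSeq's annotation of GRCm38.p6, and 19 of them have another symbol today, among them Hsp86-1 (Hsp90aa1), Hspcb and Hsp84-1 (both Hsp90ab1), Hsp105 (Hsph1), Hspa9a (Hspa9), Hsp70-4 (Hspa14), Hsp25-2 (Hspb7), Dnajb10 (Dnajb2) and Pdir-pending (Pdia5). By family, 7 probes were for HSP90, 6 for HSP70 and HSP110, 2 for small heat shock proteins, 13 for cytosolic and nuclear J-domain proteins, 10 for the chaperonin TRiC, 3 for mitochondrial chaperones, 14 for folding in the endoplasmic reticulum (ER) and 9 for peptidyl-prolyl isomerases outside it. The remaining 4 probes matched by name alone, and their genes are no chaperones by textbook knowledge: Hspg2 (perlecan), Pdi4 (a peptidyl arginine deiminase), Ppicap (Lgals3bp) and Hspc121-pending (Hacd3).

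Male FVB mice, 6 weeks old, were either fed or fasted for 12, 24 or 72 h, and RNA was taken from full-thickness small intestine. Metabolic cages housed the mice during the fast, with infrared heating once it had lasted 24 h. On each of 12 two-colour arrays, RNA pooled from 2 mice (Cy3) was hybridised together with reference RNA from 6 fed mice (Cy5), and each time point had 3 pools of different mice. The unit of every value below is log2(Cy3/Cy5), the log2 ratio of the pool to the reference after quantile normalization, a change is the difference of the means of 3 pools unless n is given, and its ± is the standard error of that difference.

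Chaperones bind proteins that are not yet folded or have lost their fold. HSP70 takes up short hydrophobic stretches and releases them with ATP, J-domain proteins bring it substrates and start its ATP hydrolysis, and HSP110 exchanges the nucleotide. HSP90 acts late, on kinases and steroid receptors, together with immunophilins such as Fkbp4 and Fkbp5. TRiC closes around actin and tubulin, Hspd1 and its lid Hspe1 form the chamber of the mitochondrial matrix, and the ER has its own HSP70 (Hspa5), lectin chaperones and disulfide isomerases, whose genes the unfolded protein response controls through Xbp1 and other factors. In the small intestine, goblet cells, Paneth cells and plasma cells of the lamina propria secrete large amounts of protein and are rich in ER.

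The promoters of these genes are known for short control elements, and the windows below show 1 match each for 5 genes from a search of RefSeq promoters (GRCm38.p6, 250 bases before to 50 after each start site, 32851 promoters, both strands). Of the 53 gene numbers of the probes, 42 were in that table. The ER stress response element, searched as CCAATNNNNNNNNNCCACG, was found in 0.119% of all promoters and in those of 3 of the 42 genes, Calr, Canx and Hspa5. The heat shock element, searched as GAANNTTCNNGAA, was found in 0.603% of all promoters and in those of 4 of the 42 genes, Dnajb6, Hspd1, Hspe1 and Hsph1. Capitals mark the element, read 5′ to 3′ on the strand of the gene, and a match is a description of the letters and no evidence of binding.
Calr, chr8:84847069-84847098, minus strand: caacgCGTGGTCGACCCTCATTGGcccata
Canx, chr11:50325794-50325823, minus strand: attgaCCAATCACCACGCTCCACGaagaat
Hspa5, chr2:34772020-34772049, plus strand: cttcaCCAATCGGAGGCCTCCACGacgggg
Hspe1, chr1:55088051-55088080, plus strand: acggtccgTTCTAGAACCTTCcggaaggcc
Hspd1, chr1:55088050-55088079, minus strand: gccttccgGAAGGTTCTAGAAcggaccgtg
Hspd1 and Hspe1 lie head to head, and their annotated spans overlap by 96 bases. The last of these windows is the opposite strand of the one before it, shifted by 1 base. The element stands before the annotated start of Hspe1. For Hspd1 it stands before a start site that lies within the annotated span of the gene, and so the element lies inside that span.

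The arrays differed in ways that bear on these probes. The fed and 72 h arrays had one file format and signal range (median Cy5 intensity 124 to 142) and the 12 h and 24 h arrays another (393 to 627), so that for 12 h and 24 h against fed the format and fasting cannot be told apart, whereas 72 h against fed and 24 h against 12 h each lay within a format. The Cy5 channel, with reference RNA on every array, differed as well. In it, 21 of the 68 probes differed from the fed arrays at 12 h, 12 at 24 h and 0 at 72 h (limma, adjusted p under 0.05), where 2 members and 836 of all probes had an unadjusted p under 0.05. Over all probes the Cy5 channel differed for 21.7%, 20.6% and 0%. Between the 12 h and 24 h arrays, which share a format, it differed for 11 of the 68 probes and for 13.7% of all probes. Of the arrays, fed replicate 3 and 12 h replicate 3 had opposed log ratios (r = -0.383 across all probes, the lowest of 66 pairs, the next being -0.183), although the dyes ran the same way on every array. The source label of fed replicate 3 gives the 2 mice of its own pool as its reference, and its labelling protocol the pool of 6. The spread of the log ratios was widest on 12 h replicate 3 (SD 0.692, against 0.244 to 0.388 on the fed arrays). In Cy3, 57 of the 68 probes were well above background on all 12 arrays and 3 on no fed array, no spot of theirs was saturated, and 54 had a value on every array after 15 spots had been left out as outliers. Enterocyte markers (Anpep, Apoa1, Apoa4 and Vil, the 4 found of 13 names) were well above background on all arrays. Their mean log ratio was -1.08 to 0.10 in the fed pools, 0.05 to 1.73 at 12 h, 0.15 to 0.40 at 24 h and -0.10 to -0.05 at 72 h, and Anpep, a brush border peptidase, was called higher at 12 h (3.45 ± 0.77, adjusted p = 0.0155). Their part in the 12 h changes below was not tested. From array values of whole tissue alone, fewer cells of a type and less RNA per cell cannot be told apart. The study's histology found no significant difference in goblet cell number between fed mice and those fasted for 72 h. The same held for the volume fractions of enterocytes and smooth muscle. How these counts bear on the probes was not tested.

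A minority of the folding genes differed between fasted and fed pools, and the calls were in both directions and spread over most families. Fkbp5 rose 3.41-fold at 24 h and 5.11-fold at 72 h, and the mitochondrial co-chaperonin Hspe1 fell 3.42-fold at 72 h. Its partner Hspd1 was 2.60-fold higher at 24 h and was not called at 72 h. In Cy3 alone Hspd1 was not called at 24 h (limma, adjusted p = 0.537). The peptidyl-prolyl isomerases Ppia and Ppib and the ER J-protein Dnajb9 were 2.09-fold, 1.85-fold and 2.00-fold lower at 72 h. At 12 h, 10 of the 68 probes were called higher and 10 lower (limma, adjusted p under 0.05), against 4.8% higher and 5.98% lower over all probes tested, and 1 of the 10 higher calls, Xbp1, rests on 1 pool at 12 h. At 24 h, 5 were higher and 4 lower, against 3.79% and 6.3%. At 72 h, 6 were higher and 8 lower, against 4.85% and 5.7%. Called in either direction were thus 29.4% of the members at 12 h, 13.2% at 24 h and 20.6% at 72 h, and the median change of all 68 was 0.10, 0.03 and -0.19, against -0.02, 0.02 and 0.01 over all probes. The members were also brighter than the array as a whole. Their mean normalized log2 Cy3 signal had a median of 8.4, where that of all probes was 7.04. The part of brightness in the share of probes called was not tested. When each array was centred on its median log ratio in place of quantile normalization, the 12 h calls split into 3 higher and 17 lower, those of 24 h into 2 and 8, and those of 72 h into 3 and 15. Among the calls over all probes, 1185 of 3029 at 12 h, 1870 of 3897 at 24 h and 912 of 2833 at 72 h were then higher.

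**Figure D1:**
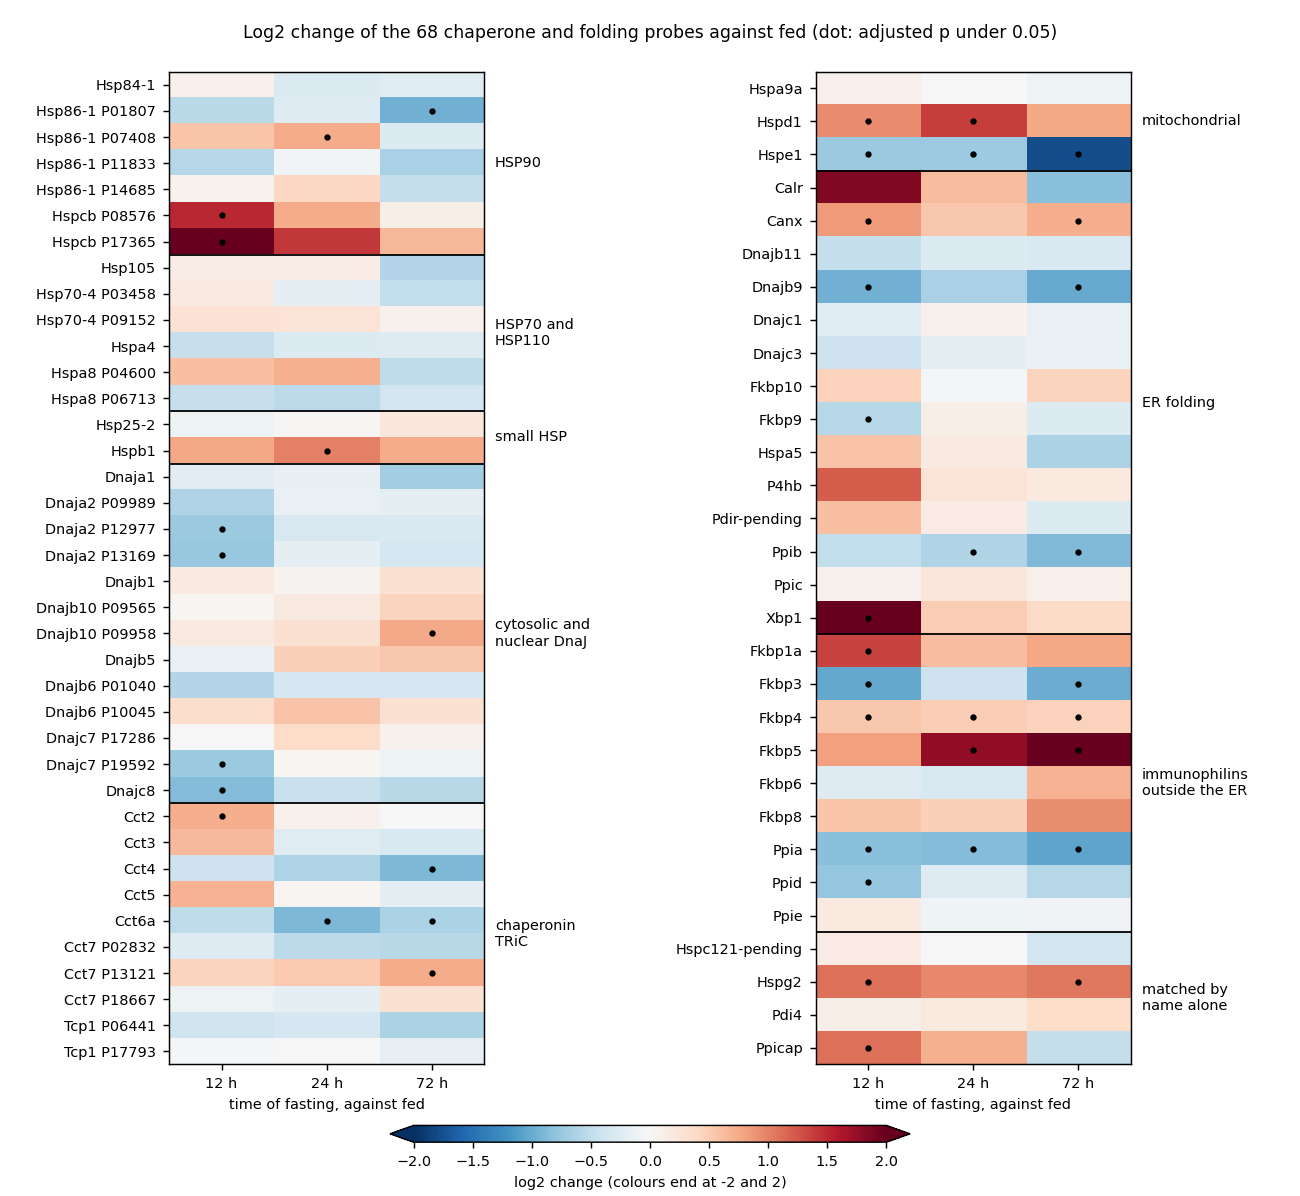
Log2 change of each of the 68 probes at 12, 24 and 72 h against the fed pools (3 columns), grouped by family, with red for higher and blue for lower and a dot where the adjusted p was under 0.05. Dots of both directions are spread over most families, with 20 at 12 h, 9 at 24 h and 14 at 72 h.

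Both channels bear on these calls. For 13 of the 20 probes called at 12 h the Cy5 reference moved more than the Cy3 sample, as it did for 3 of 9 at 24 h and 1 of 14 at 72 h. In Cy3 alone, 5, 5 and 7 of these probes were called in the same direction. Without fed replicate 3, 5 probes were called at 12 h and 7 at 72 h, beside 579 and 1100 of all probes. Without fed replicate 3 and 12 h replicate 3 together, an alternative chosen after seeing the data, 7, 17 and 21 were called at 12, 24 and 72 h. This last fit called 949, 3358 and 2956 of all probes, against 2187, 2046 and 2140 with all arrays, so calls moved the same way across the array. The calls that held under every alternative tried were those of Fkbp5 and Cct6a at 24 h and of Fkbp5, Hspe1, Ppia and Ppib at 72 h.

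**Figure D2:**
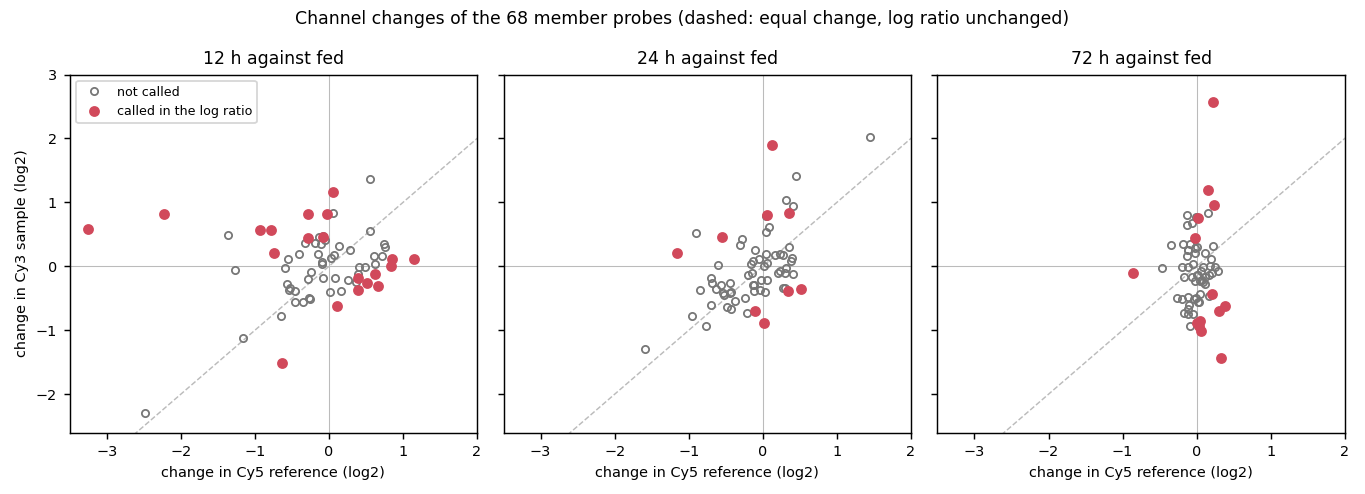
Change against fed of the Cy5 reference (x axis, log2) and of the Cy3 sample (y axis, log2) for the 68 probes, in 1 panel per time point, with probes called in the log ratio filled and the dashed line where both channels moved equally. At 12 h and 24 h the points spread along the Cy5 axis, down to -3.26 for Xbp1 at 12 h, whereas at 72 h no probe was called in Cy5.

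Of the 7 cytosolic HSP90 probes, 2 were called higher at 12 h, 1 higher at 24 h and 1 lower at 72 h, and probes of the same gene differed. Hsp90aa1, the stress-inducible form, had 4 probes under the name Hsp86-1. Probe A_65_P07408 read -0.38, 0.14 and -0.07 in the fed pools, 0.36, 0.66 and 0.35 after 12 h, 0.75, 0.74 and 0.42 after 24 h, and -0.28, -0.18 and -0.69 after 72 h of fasting. Its 24 h pools all lay above the fed pools (change 0.74 ± 0.19, 1.67-fold, adjusted p = 0.0266), and its 72 h pools overlapped with them. Probe A_65_P01807 read -0.16, 0.12 and 0.69 in the fed pools and -0.77, -0.70 and -0.77 at 72 h, where all pools lay below the fed ones and the change was -0.97 ± 0.22 (1.95-fold lower, adjusted p = 0.0133). All 4 probes of Hsp90aa1 had a negative change at 72 h, from -0.28 to -0.97, and the sign was the same under every scaling tried, while at 12 h the changes ranged from -0.56 to 0.56. The other probes, A_65_P11833 and A_65_P14685, were not called, with changes of -0.05 and 0.42 at 24 h and of -0.65 and -0.48 at 72 h (adjusted p = 0.123 and 0.278 at 72 h). The 72 h change of A_65_P01807 was -0.73 without fed replicate 3 (adjusted p = 0.0671) and -0.96 without 72 h replicate 1 (0.0591), and the 24 h call of A_65_P07408 was lost without fed replicate 1 or 3 or 24 h replicate 1 or 2 (adjusted p 0.0619 to 0.115).

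Hsp90ab1, the constitutive form, had 3 probes, and those named Hspcb were called higher at 12 h. A_65_P08576 read -0.05, -0.04 and -0.50 in the fed pools and 0.81, 0.90 and 2.20 at 12 h (change 1.501 ± 0.30, 2.83-fold, adjusted p = 0.0106). A_65_P17365 read 0.16, 0.36 and -1.74 in the fed pools and 1.60 and 3.67 in the 2 pools measured at 12 h (change 3.04 ± 0.57, adjusted p = 0.00897). Both extremes of either probe were fed replicate 3 and 12 h replicate 3, and the Cy5 reference differed by -0.93 and -2.22 on the 12 h arrays. The third probe, Hsp84-1, changed by 0.10 ± 0.19 at 12 h (adjusted p = 0.755). The call of A_65_P08576 was lost without fed replicate 3 (adjusted p = 0.0546) and with median centring (0.84, adjusted p = 0.166).

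**Figure D3:**
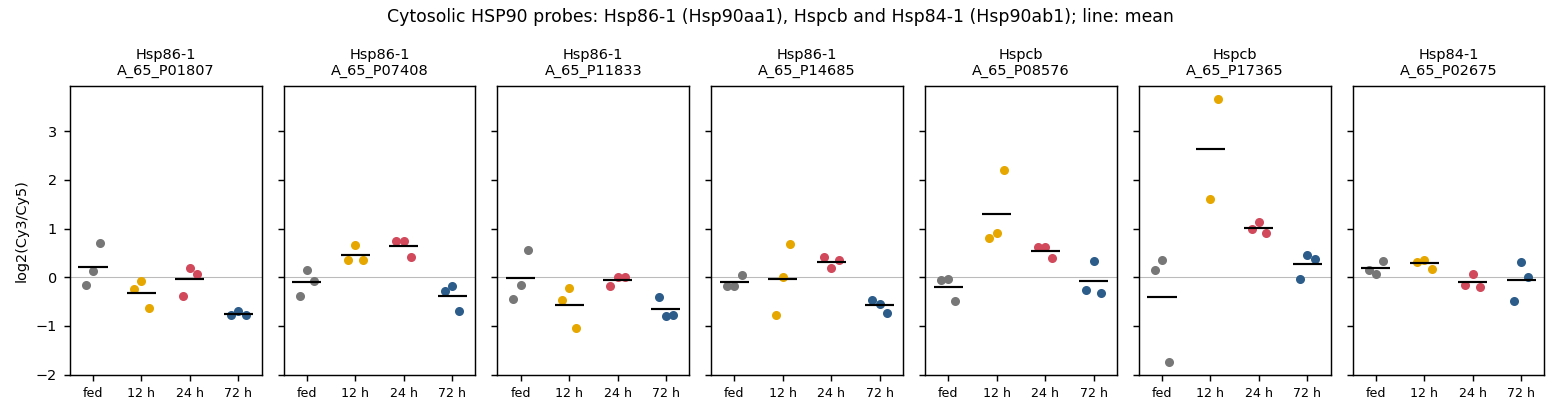
Log2(Cy3/Cy5) of each pool (points) and the mean of the pools (line) at each time point for the 4 Hsp86-1, 2 Hspcb and 1 Hsp84-1 probes. All 72 h points of the Hsp86-1 probes lie below the fed mean, and the Hspcb probes have their highest point in 12 h replicate 3.

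None of the 6 probes of HSP70 and HSP110 was called at any time point by limma, with 3, 2 and 2 at an unadjusted p under 0.05 at 12, 24 and 72 h. Hspa8, the constitutive HSP70 of the cytosol, read 0.10, 0.41 and -0.04 in the fed pools with probe A_65_P04600, 0.75, 0.81 and 1.05 at 24 h and -0.56, -0.29 and -0.20 at 72 h. All pools lay above the fed ones at 24 h (0.71 ± 0.25, adjusted p = 0.0847) and below them at 72 h (-0.51 ± 0.25, adjusted p = 0.223). Its other probe, A_65_P06713, was not well above background on any fed array and gives no fold. In the log ratio this probe had the opposite sign at 12 h and 24 h (-0.46 and -0.52, limma, adjusted p = 0.0843 and 0.0568). Its change at 72 h was -0.38 (0.159). The probes of Hsp70-4 (Hspa14), a ribosome-associated member, differed in direction at 72 h (-0.49 ± 0.26 for A_65_P03458 and 0.08 ± 0.28 for A_65_P09152, adjusted p = 0.256 and 0.889), and Hspa4, of the HSP110 class, changed by -0.46, -0.27 and -0.27. Hsp105 (Hsph1), the nucleotide exchange factor of HSP70, read -0.15, 0.20 and -0.10 in the fed pools and -0.45, -0.76 and -0.61 at 72 h (change -0.59 ± 0.19, adjusted p = 0.0583). With fed replicate 3 and 12 h replicate 3 both left out, an alternative chosen after seeing the data, 2 fed pools remained. The 72 h changes of Hspa8 (A_65_P04600, -0.61 ± 0.18, adjusted p = 0.0354) and Hsp105 (-0.63 ± 0.16, 0.0187) were then called. Fed replicate 3 held the lowest fed value of Hspa8 with this probe, so its omission could only move that change down.

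Of the small heat shock proteins, Hspb1, which holds unfolded proteins and binds actin filaments, rose at 24 h. It read 0.13, 0.29 and 0.30 in the fed pools, 1.17, 1.52 and 0.35 after 12 h, 1.07, 1.55 and 1.13 after 24 h, and 0.73, 1.24 and 0.98 after 72 h of fasting. Every fasted pool lay above every fed pool, and the change was 0.77 ± 0.25 at 12 h (adjusted p = 0.0626), 1.01 ± 0.25 at 24 h (2.01-fold, 0.0234) and 0.74 ± 0.25 at 72 h (0.0753). The 24 h call was lost in Cy3 alone (0.45, adjusted p = 0.0949), without background correction (0.67, 0.0952), with median centring (0.70, 0.0757) and without any single one of the fed or 24 h arrays (0.0507 to 0.0868). Markers of smooth muscle, which is rich in Hspb1, moved as well: of 8 probes for 7 of the 8 genes listed, 5 were called higher at 12 h, 3 at 24 h and 2 at 72 h, and their mean log ratio ranged from -0.55 to 0.02 in the fed pools, 0.45 to 1.27 at 12 h, 0.32 to 0.52 at 24 h and 0.01 to 0.25 at 72 h. Their part in the change of Hspb1 was not tested. Hsp25-2 (Hspb7) changed by -0.10, 0.02 and 0.23 at the 3 time points and was not called.

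The cytosolic and nuclear J-domain proteins fell at 12 h where they were called at all: 4 of 13 probes, for 3 genes, were lower and none higher. Dnaja2, a partner of Hspa8, read -0.24, -0.24 and 0.30 in the fed pools and -0.99, -0.66 and -0.80 at 12 h with its probe A_65_P13169, a change of -0.75 ± 0.18 (1.69-fold lower, adjusted p = 0.0199). Probe A_65_P12977 gave -0.74 ± 0.17 (adjusted p = 0.0179), and the third probe of the gene, A_65_P09989, -0.61 ± 0.26 (0.138). Dnajc8, which is associated with splicing factors, fell by 0.87 at 12 h (± 0.23, n = 2 pools, adjusted p = 0.0318). Dnajc7, which has binding sites for HSP70 and HSP90, fell by 0.74 with probe A_65_P19592 (± 0.21, adjusted p = 0.0416), while its other probe, A_65_P17286, changed by 0.01 (± 0.19, n = 2 pools, adjusted p = 0.987). None of these probes was called at 24 h or 72 h. The Dnaja2 calls of A_65_P13169 and A_65_P12977 were lost in Cy3 alone (-0.37, 0.349 and -0.12, 0.785), with the software's own log ratio (0.077 and 0.0661) and without fed replicate 3 (0.0757 and 0.066), the Dnajc8 call without fed replicate 1 or 3 or 12 h replicate 3 (0.0751, 0.107 and 0.193), and the Dnajc7 call in 18 of 23 alternatives, among them every single array left out but 12 h replicate 1 and 24 h replicate 2 (0.0502 to 0.156).

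At 72 h a single J-domain probe was called, Dnajb10 (Dnajb2) A_65_P09958, which rose by 0.76 ± 0.22 (1.69-fold, n = 2 fed pools, adjusted p = 0.0413). Its other probe changed by 0.44 ± 0.19 (adjusted p = 0.171). The reference channel differed by -0.86 on the 72 h arrays, and the Cy3 channel changed by -0.10. The call was lost in 13 of 23 alternatives, with a change of 0.43 without fed replicate 3 (adjusted p = 0.336) and an adjusted p of 0.0503 to 0.122 without fed replicate 2 or any one of the 24 h and 72 h arrays. Dnaja1, another J-protein of the cytosol, read -0.19, 0.19 and -0.41 in the fed pools and -1.36, -0.66 and -0.49 at 72 h (change -0.70 ± 0.23, adjusted p = 0.0719). Dnajb1, the main J-protein of the heat shock response, changed by 0.18, 0.06 and 0.31 and was not called, nor was Dnajb5 (0.54 at 72 h, adjusted p = 0.158). The probes of Dnajb6 were not called either, with changes of 0.35, 0.58 and 0.30 (A_65_P10045) and of -0.58, -0.33 and -0.33 (A_65_P01040).

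TRiC subunits had 1 of 10 probes called higher at 12 h, 1 lower at 24 h, and 1 higher and 2 lower at 72 h, so that calls in both directions occurred among the subunits of 1 ring. Cct6a read 0.26, -0.05 and 0.28 in the fed pools, -0.41, -0.51 and -0.13 after 12 h, -0.93, -0.70 and -0.56 after 24 h, and -0.52, -0.42 and -0.48 after 72 h of fasting. Every fasted pool lay below every fed pool, with changes of -0.51 ± 0.16 (adjusted p = 0.0593), -0.90 ± 0.16 (1.86-fold lower, 0.00634) and -0.64 ± 0.16 (1.55-fold lower, 0.0239). Cct4 read -0.04, -0.31 and 0.32 in the fed pools and -1.18, -0.68 and -0.87 at 72 h, all below the fed pools (-0.90 ± 0.22, 1.87-fold lower, adjusted p = 0.0187). Cct2 was higher at 12 h (0.73 ± 0.20, 1.66-fold, adjusted p = 0.0333) and changed by 0.005 ± 0.20 at 72 h. Its call was lost without any one of the fed arrays or 12 h replicate 3 (0.0733 to 0.0964), and with median centring its change was 0.33. The 72 h calls of Cct6a (0.0591 to 0.102) and Cct4 (0.0507 to 0.11) were lost without fed replicate 1 or 3 and without 72 h replicate 1 or 3, that of Cct6a also without 72 h replicate 2.

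The 3 probes of Cct7 disagreed. A_65_P13121 was not well above background on any fed array. It read -0.18, -0.07 and -0.21 in the fed pools and 0.83, 0.46 and 0.46 at 72 h (change 0.74, limma, adjusted p = 0.0298). Its fold was taken from Cy3 signals, with the fed signal set no lower than the dimmest signal flagged well above background. By this approximate bound, which has no test of its own, Cct7 was 1.44-fold higher. A_65_P02832 changed by -0.55 ± 0.24 (adjusted p = 0.158) and A_65_P18667 by 0.30 ± 0.21 (0.409) at the same time. Leaving out any one of the fed or 72 h arrays ended the call of A_65_P13121 (adjusted p 0.0547 to 0.156). It was also lost in Cy3 alone (0.75, limma, adjusted p = 0.0921) and without background correction (0.47, 0.0506). Tcp1, with 2 probes, changed by -0.16 and -0.64 at 72 h (adjusted p = 0.603 and 0.0642). Cct3 changed by -0.30 (adjusted p = 0.673) and Cct5 by -0.20 (0.696, n = 2 fed pools) at 72 h.

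In the log ratio, the chaperonin pair of the mitochondrial matrix was called in opposite directions at 12 h and 24 h. In Cy3 alone, neither gene was called at these times. Their Cy3 changes at 12 h were both positive, 0.11 for Hspe1 and 0.21 for Hspd1 (limma, adjusted p = 0.733 and 0.612). Hspe1, the lid of the chamber, read -0.05, -0.19 and 0.23 in the fed pools, -0.54, -0.71 and -0.999 after 12 h, -1.02, -0.65 and -0.51 after 24 h, and -1.85, -1.55 and -1.92 after 72 h of fasting. All fasted pools lay below all fed pools, and the 72 h pools below all others. It fell by 0.75 ± 0.19 at 12 h (adjusted p = 0.0248), by 0.72 ± 0.19 at 24 h (0.0281) and by 1.77 ± 0.19 at 72 h (3.42-fold lower, adjusted p = 0.000135). The Cy3 channel alone gave -1.44 at 72 h, -0.38 at 24 h (adjusted p = 0.14) and 0.11 at 12 h, where the reference differed by 0.86. The 12 h call was lost without fed replicate 1 or 3 or 12 h replicate 3 (0.0618 to 0.0956), and the 24 h call without fed replicate 1 or 3 or 24 h replicate 1 or 2 (0.0564 to 0.12).

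Hspd1, the barrel of the same chamber, whose promoter shares the heat shock element shown above with that of Hspe1, read -0.10, 0.39 and -0.81 in the fed pools, 0.33, 1.10 and 0.87 after 12 h, 1.26, 1.48 and 0.87 after 24 h, and 0.51, 0.70 and 0.60 after 72 h of fasting. The 24 h and 72 h pools lay above all fed pools, and the 12 h pools overlapped with them. The change was 0.94 ± 0.27 at 12 h (adjusted p = 0.041), 1.38 ± 0.27 at 24 h (2.60-fold higher, 0.00922) and 0.78 ± 0.27 at 72 h (0.085). At 24 h the reference differed by -1.16 and the Cy3 channel alone changed by 0.21 (adjusted p = 0.537), the only alternative in which the 24 h call was lost, while the 12 h call was lost in 16 of 23 alternatives, with a change of 0.63 without fed replicate 3 (0.158) and an adjusted p of 0.0512 to 0.117 without fed replicate 1, 12 h replicate 2 or 3, 24 h replicate 1 or 2 or any one of the 72 h arrays. Hspa9a (Hspa9), the HSP70 of the matrix, changed by 0.10, 0.01 and -0.09, all ± 0.21. The difference between the changes of Hspe1 and Hspd1 was not tested.

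Partners of the mitochondrial chaperones, in import and proteolysis, were represented by 9 probes for 8 of 10 genes listed. At 12 h 2 of them were called lower, Timm44, which anchors the import motor (-0.68 ± 0.20, adjusted p = 0.0437), and Yme1l1, an inner membrane protease (probe A_65_P18087, -0.84 ± 0.18, 0.0124). None was called by limma at 24 h (1 at an unadjusted p under 0.05), and at 72 h the other probe of Yme1l1 was lower (A_65_P02211, -0.61 ± 0.15, 0.023).

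**Figure D4:**
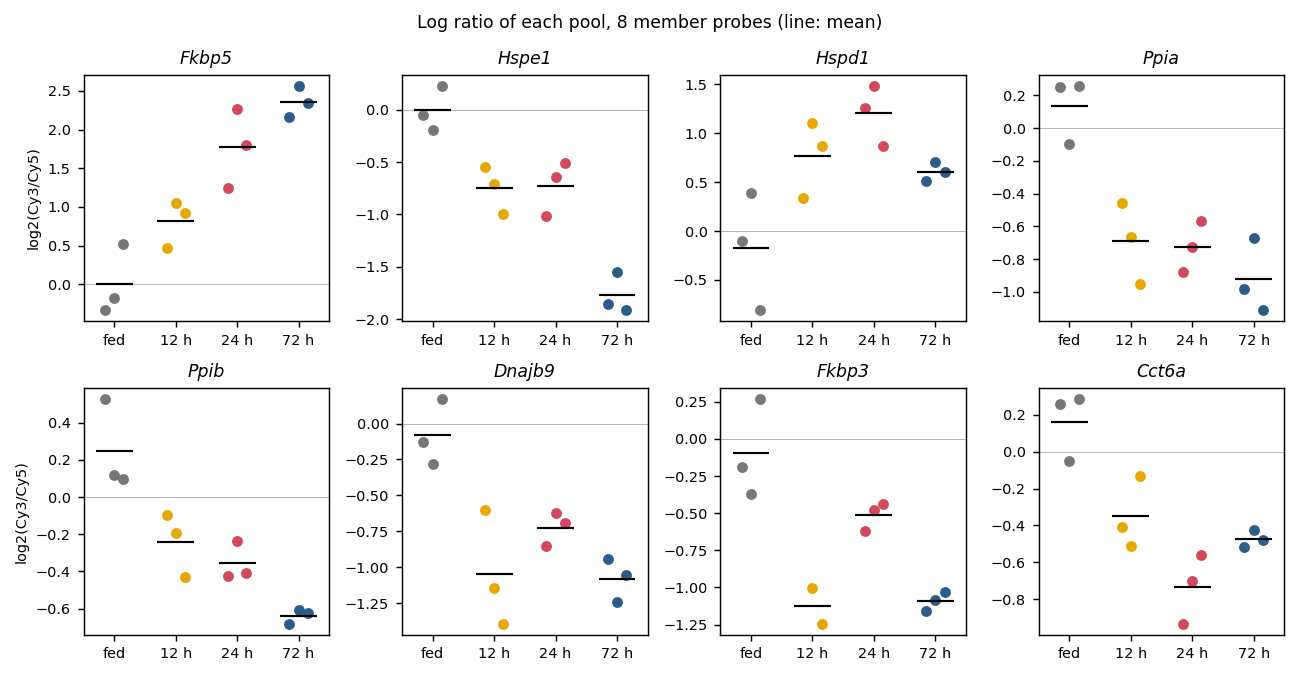
Log2(Cy3/Cy5) of each pool (points) and the mean of the pools (line) in fed mice and after 12, 24 and 72 h for Fkbp5, Hspe1, Hspd1, Ppia, Ppib, Dnajb9, Fkbp3 and Cct6a. Fkbp5 climbs to between 2.16 and 2.57 at 72 h, Hspe1 drops to between -1.55 and -1.92, and Hspd1 has its highest points at 24 h.

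The ER folding genes had 14 probes, of which 2 were called higher and 2 lower at 12 h, 1 lower at 24 h, and 1 higher and 2 lower at 72 h. Ppib, the cyclophilin of the ER, read 0.53, 0.12 and 0.10 in the fed pools, -0.10, -0.20 and -0.43 after 12 h, -0.42, -0.23 and -0.41 after 24 h, and -0.68, -0.61 and -0.62 after 72 h of fasting. All fasted pools lay below all fed pools, and the change was -0.49 ± 0.16 at 12 h (adjusted p = 0.0658), -0.60 ± 0.16 at 24 h (0.0312) and -0.89 ± 0.16 at 72 h (1.85-fold lower, 0.00325). Dnajb9, a J-protein that works with Hspa5 and is a target of the unfolded protein response, read -0.13, -0.28 and 0.17 in the fed pools, -0.60, -1.15 and -1.39 after 12 h, -0.85, -0.62 and -0.70 after 24 h, and -0.95, -1.24 and -1.05 after 72 h. Every fasted pool lay below every fed pool, and the change was -0.97 ± 0.20 at 12 h (adjusted p = 0.0118), -0.65 ± 0.20 at 24 h (0.0548) and -1.003 ± 0.20 at 72 h (2.00-fold lower, 0.00563). Its 12 h call was lost without fed replicate 3 (0.0548), and in Cy3 alone both calls were lost (-0.30, 0.313 at 12 h and -0.62, 0.0574 at 72 h). The 24 h call of Ppib was lost without fed replicate 1 or 2 or 24 h replicate 1 or 3 (adjusted p 0.0573 to 0.135).

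Canx, the membrane-bound lectin chaperone, went the other way. It read -0.24, -0.13 and -0.04 in the fed pools, 0.95, 0.78 and 0.43 after 12 h, 0.75, 0.27 and 0.19 after 24 h, and 0.73, 0.85 and 0.18 after 72 h of fasting, with every fasted pool above every fed pool. The rise was 1.81-fold at 12 h (0.86 ± 0.21, adjusted p = 0.0225) and 1.66-fold at 72 h (0.73 ± 0.21, 0.04), and on the fed arrays the probe was well above background on 1 of 3. Its calls were lost without any single one of the fed arrays (adjusted p 0.0509 to 0.0758 at 12 h and 0.0838 to 0.129 at 72 h), without 12 h replicate 2 (0.0527 at 12 h and 0.0503 at 72 h) and, at 72 h, without 24 h replicate 2 or 72 h replicate 1 or 2 (0.0537 to 0.169). Fkbp9, an ER peptidyl-prolyl isomerase, fell by 0.57 ± 0.16 at 12 h (1.49-fold lower, adjusted p = 0.0411), a call lost in 19 of 23 alternatives, among them every single array left out but 12 h replicates 1 and 2 (0.0525 to 0.121).

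For Calr, Hspa5 and P4hb the values turned on fed replicate 3 and 12 h replicate 3. Calr, the soluble lectin chaperone, read 0.36, 0.49 and -1.48 in the fed pools, 0.62, 0.88 and 3.41 after 12 h, 0.39, 0.52 and 0.36 after 24 h, and -1.22, -0.75 and -1.17 after 72 h of fasting. The 72 h pools lay below fed replicates 1 and 2 and above fed replicate 3, and the changes were 1.85 ± 0.60 at 12 h (adjusted p = 0.0606) and -0.83 ± 0.60 at 72 h (0.423). Hspa5, the HSP70 of the ER, read 0.19, 0.62 and -0.90 in the fed pools and -0.54 and -0.77 in the 2 pools measured at 72 h (change -0.63 ± 0.36, adjusted p = 0.305).

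P4hb, a protein disulfide isomerase, read 0.46, 0.48 and -1.48 in the fed pools, 0.12, 0.12 and 2.83 at 12 h, and 0.09, -0.11 and 0.05 at 72 h (change 0.19 ± 0.60, adjusted p = 0.877). Fed replicate 3 was the lowest fed array and 12 h replicate 3 the highest 12 h array for 4 of the 13 ER probes measured on all fed and 12 h arrays, for 12 of 56 such members and for 19.1% of all such probes. The fit without both of these arrays was chosen after seeing the data and left 2 fed pools. In it, the 72 h change was -1.47 ± 0.16 for Calr (2.77-fold lower, adjusted p = 0.000206), -1.07 ± 0.20 for Hspa5 (2.09-fold lower, 0.0046, n = 2 pools at 72 h too) and -0.46 ± 0.13 for P4hb (1.37-fold lower, 0.0352). Leaving out 12 h replicate 3 does not alter these differences, only the spread that all groups share. Fed replicate 3 held the lowest fed value of each of these genes, so its omission could only move their changes down. The values of this fit are therefore no independent support for a fall. When fed replicate 3 alone was left out, the 72 h adjusted p was 0.176 for Calr, 0.0478 for Hspa5 and 0.722 for P4hb.

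Xbp1, the transcription factor of the unfolded protein response, was called 3.84 ± 0.66 higher at 12 h (adjusted p = 0.00681), from a single pool, 12 h replicate 3 at 3.33, and fed values of 0.17, 0.34 and -2.05. The fit assumes that this lone pool varies like the pools of the other groups, so that its standard error and adjusted p hold no spread at 12 h. The reference differed by -3.26 on that array, and Cy3 alone gave 0.58 (adjusted p = 0.56). At 24 h Xbp1 changed by 0.51 and at 72 h by 0.38, both ± 0.47 and not called. Dnajb11 and Dnajc3, J-proteins of the ER, changed by -0.30 and -0.13 at 72 h and were not called. Neither were Dnajc1, Ppic, Fkbp10 and Pdir-pending (Pdia5), which lay between -0.27 and 0.45 at that time.

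**Figure D5:**
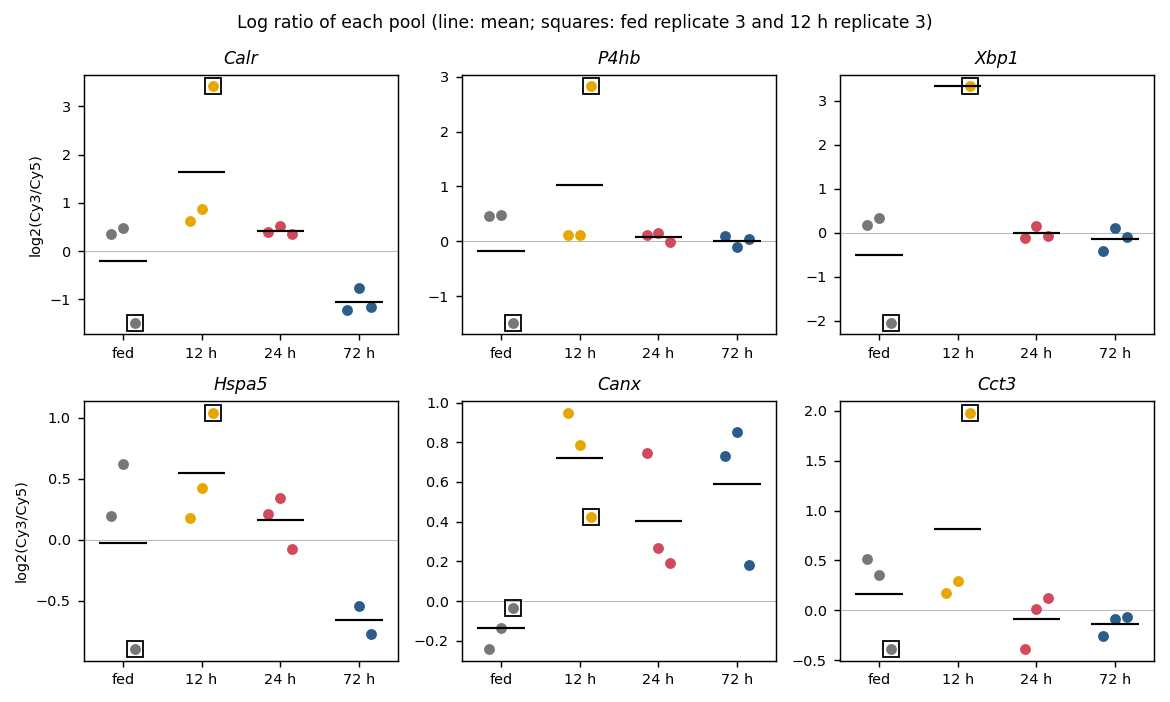
Log2(Cy3/Cy5) of each pool (points) and the mean (line) at each time point for Calr, P4hb, Xbp1, Hspa5, Canx and Cct3, with squares around fed replicate 3 and 12 h replicate 3. For Calr, P4hb, Hspa5 and Cct3 the squared points are the lowest fed value and the highest 12 h value, up to 3.41 for Calr. For Xbp1 they are the lowest fed value, -2.05, and the only value at 12 h, 3.33.

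Other genes of the unfolded protein response and of ER quality control, 14 probes for 13 of 37 genes listed, were mostly not called. At 12 h limma called none (3 at an unadjusted p under 0.05), at 24 h Ern1, the sensor that splices Xbp1 mRNA, was lower (-0.76 ± 0.21, adjusted p = 0.0368), and at 72 h Cai (Pdia4), a disulfide isomerase, was 2.51-fold lower (-1.33 ± 0.17, 0.000358), while Creb3, a membrane-bound transcription factor, was 4.33-fold higher (2.12 ± 0.45, 0.00904). Their median change was 0.03, -0.07 and -0.07. Some markers of secretory cells and of B cells moved at 72 h too. Of B and plasma cell markers (5 probes, 4 of 11 genes), Igj was 9.1-fold lower (-3.19 ± 0.24, adjusted p = 4.86e-06) and Ms4a1 1.73-fold lower (0.0146). Not called were Pou2af1 (-0.46, 0.137) and the Sdc1 probes A_65_P01591 (-0.26, 0.453) and A_65_P20200, which went the other way (0.35, 0.604). The mean log ratio of the list was -0.18 to 0.10 in the fed pools and -0.96 to -0.79 at 72 h. The goblet cell marker found, Agr2 (1 of 6), was 2.69-fold lower (-1.43 ± 0.23, 0.00177), with log ratios of -0.37 to 0.05 in the fed pools and -1.83 to -1.36 at 72 h. None of these markers was below background on every array, and their part in the ER values was not tested. Paneth cell markers (3 probes, 2 of 9 genes) ranged in mean log ratio from -2.27 to 1.04 in the fed pools and 0.07 to 0.34 at 72 h with Mmp7 called higher at 12 h, and Cpa1, found for exocrine pancreas (1 of 11 genes), was not called.

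Of the peptidyl-prolyl isomerases outside the ER, Fkbp5 had the largest change of all members at 72 h. Fkbp5, a co-chaperone of HSP90 that lowers the hormone affinity of the glucocorticoid receptor and is itself induced by glucocorticoids, read -0.33, -0.18 and 0.52 in the fed pools, 0.47, 1.051 and 0.93 after 12 h, 1.24, 2.27 and 1.80 after 24 h, and 2.16, 2.57 and 2.34 after 72 h of fasting. The 12 h pools overlapped with the fed ones, and the 24 h and 72 h pools lay above both. It changed by 0.81 ± 0.27 at 12 h (adjusted p = 0.0658), 1.77 ± 0.27 at 24 h (3.41-fold, 0.00243) and 2.35 ± 0.27 at 72 h (5.11-fold, 0.000204). In Cy3 alone the values were 1.36, 1.89 and 2.58, and the probe was well above background on 1 of 3 fed arrays and all fasted ones.

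Fkbp4, the other steroid receptor immunophilin, was called at all time points but by a small amount, at -0.23, -0.19 and -0.14 in the fed pools and between 0.22 and 0.40 in the 8 fasted pools measured. It was 1.46-fold higher at 12 h (0.54 ± 0.16, n = 2, adjusted p = 0.0424), 1.4-fold at 24 h (0.49 ± 0.14, 0.043) and 1.38-fold at 72 h (0.47 ± 0.14, 0.0495). With adjusted p-values this near the threshold, the calls were lost in 18, 14 and 15 of 23 alternatives, among them each single array left out but 12 h replicates 1 and 3 (adjusted p 0.0512 to 0.187), and at 12 h also 12 h replicate 3 (0.0681). Fkbp1a, the target of FK506, rose 2.54-fold at 12 h (1.35 ± 0.24, adjusted p = 0.0064) and changed by 0.78 ± 0.24 at 72 h (0.0526). Its 12 h change was 0.57 in Cy3 alone, where the reference differed by -0.78, and 0.75 with median centring (0.145).

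Ppia, the cytosolic cyclophilin, fell. It read 0.25, -0.10 and 0.26 in the fed pools, -0.46, -0.66 and -0.95 after 12 h, -0.88, -0.72 and -0.57 after 24 h, and -0.98, -0.67 and -1.11 after 72 h of fasting, with all fasted pools below all fed ones. The change was -0.83 ± 0.18 at 12 h (adjusted p = 0.0149), -0.86 ± 0.18 at 24 h (0.0125) and -1.06 ± 0.18 at 72 h (2.09-fold lower, 0.00232), while Cy3 alone gave 0.009, -0.35 and -1.005. The gene number of this probe belongs today to a gene model named Gm10123, and Ppia has many processed pseudogenes, so that the transcripts behind the signal are uncertain. The 12 h call was lost without fed replicate 1 or 3 (adjusted p 0.0577 and 0.0589), and the 24 h call without fed replicate 1 or 24 h replicate 1 (0.0576 and 0.0521).

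Fkbp3, a nuclear member, read -0.19, -0.37 and 0.27 in the fed pools, -1.002 and -1.24 in the 2 pools measured at 12 h, -0.62, -0.48 and -0.44 after 24 h, and -1.16, -1.08 and -1.03 after 72 h. All fasted pools lay below the fed ones, and it fell by 1.03 ± 0.20 at 12 h (adjusted p = 0.00954) and by 0.99 ± 0.18 at 72 h (1.99-fold lower, 0.00341), whereas at 24 h the change was -0.42 ± 0.18 (0.151). The reference differed by 1.15 at 12 h, and Cy3 alone gave 0.12. Ppid, a cyclophilin of HSP90 complexes, was 1.71-fold lower at 12 h (-0.77 ± 0.22, adjusted p = 0.0374), a call lost without any one of the fed arrays, 12 h replicate 1, 24 h replicate 3 or 72 h replicate 2 or 3 (0.0518 to 0.13). Ppie, Fkbp6 and Fkbp8 were not called, with 72 h changes of -0.08, 0.69 and 0.93 (adjusted p = 0.881, 0.0866 and 0.138, the last with n = 2 fed pools).

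Other genes known to be induced by glucocorticoids, the class to which Fkbp5 belongs, were represented by 11 probes for 10 of 20 names. Of these, 1 was called higher at 12 h, 6 at 24 h and 9 at 72 h, and none lower, with a median change of 0.37, 0.88 and 1.75. Of all probes, 4.8%, 3.79% and 4.85% were called higher. The list was chosen with earlier results of these data known. Among its genes, the study had already reported Pck1 and Glul (as Pepck and Gs) as upregulated, so the list is no independent support. The mean log ratio of the list was -0.19 to 0.12 in the fed pools and 1.34 to 1.62 at 72 h. At 72 h Pck1, of gluconeogenesis, was 5.60-fold higher (2.49 ± 0.26, adjusted p = 0.000135), the kinase Sgk (Sgk1) 3.36-fold (1.75 ± 0.17, 9.54e-05) and the metallothionein Mt1 5.10-fold (2.35 ± 0.28, 0.000382). Gilz (Tsc22d3), a textbook glucocorticoid target, was 3.16-fold higher at 24 h (1.66 ± 0.26, 0.00267) and was not called at 72 h (0.51 ± 0.26, 0.231). Cebpd was not called at any time point (0.16 ± 0.39 at 72 h, limma, adjusted p = 0.841). The relation of these genes to the change of Fkbp5 was not tested.

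Cofactors of HSP70 and HSP90 and heat shock factors (12 probes, 10 of 21 names) had a single gene called. Bag3, which links HSP70 to small heat shock proteins, changed by 1.37 ± 0.26 at 12 h (2.59-fold higher, adjusted p = 0.00807) and 1.09 ± 0.26 at 24 h (2.13-fold, 0.0188), and limma called no probe of the list at 72 h (4 at an unadjusted p under 0.05). Prefoldin, which hands actin and tubulin to TRiC, had 5 probes for 4 of 7 genes, of which Vbp1 was 2.15-fold lower at 12 h (-1.11 ± 0.17, 0.00393) and none was called at 24 h or 72 h against fed (3 and 1 at an unadjusted p under 0.05).

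Of the probes that matched by name alone, Hspg2 (perlecan), a proteoglycan of basement membranes, was called higher at 12 h and 72 h. It read -0.03 and -0.95 in the 2 fed pools measured, 0.19, 0.49 and 1.15 at 12 h and 0.62, 0.35 and 0.71 at 72 h, with changes of 1.10 ± 0.29 (adjusted p = 0.0314) and 1.052 ± 0.29 (0.0339). These were 0.64 (0.248) and 0.59 (0.323) without fed replicate 3, the first was 0.83 (0.065) without 12 h replicate 3 and 0.06 with median centring, and the second was lost without 24 h replicate 2 or any one of the 72 h arrays (0.0506 to 0.12). The smooth muscle markers given for Hspb1 moved beside it, and their part was not tested. Ppicap (Lgals3bp), a secreted glycoprotein, read -0.59, -0.75 and -0.10 in the fed pools, 0.38, 0.29 and 1.19 at 12 h, and -1.04, -0.83 and -0.99 at 72 h. It rose 2.14-fold at 12 h (1.10 ± 0.23, adjusted p = 0.0123, against 0.50 and 0.246 with median centring), and its 72 h pools all lay below the fed pools (-0.48 ± 0.23, 0.216). Pdi4, which was not well above background on any fed array, and Hspc121-pending were not called.

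Between 12 h and 24 h of fasting, on arrays of the same format, 1 of the 68 probes was called higher and 1 lower, against 1.23% and 1.67% of all probes tested. The Cy5 reference still differed between these arrays for 11 of the 68 probes and for 13.7% of all probes (limma, adjusted p under 0.05). For both called probes the reference moved more than the Cy3 sample, and in Cy3 alone neither was called. Fkbp9 read -0.78, -0.46 and -0.98 at 12 h and -0.16, 0.05 and -0.04 at 24 h (change 0.69 ± 0.16, 1.62-fold, adjusted p = 0.0374), with no overlap, and the reference differed by -0.93 while Cy3 alone changed by -0.24. The call was lost in 16 of 23 alternatives, among them every single array left out but fed replicate 3 and 12 h replicates 1 and 2 (0.0528 to 0.128). Xbp1 changed by -3.33 ± 0.66 (n = 1 pool at 12 h, with the spread taken from the other groups, adjusted p = 0.0213), a call lost without any one of the 24 h arrays (0.0529 to 0.0682). Fkbp5 was 1.94-fold higher at 24 h than at 12 h, with all 24 h pools above all 12 h pools (0.96 ± 0.27, adjusted p = 0.0712). Of the partner genes, Sgk (1.45 ± 0.17, 0.000862), Mt1 (2.03 ± 0.32, 0.00548) and the prefoldin subunit Pfdn2 (0.77 ± 0.18, 0.0346) were higher at 24 h.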

How the data were processed

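The authors deposited the scanner output of 12 two-colour arrays, with a median foreground and background intensity per spot and channel that is neither corrected nor normalized, and with flags that mark spots as outliers, saturated or not well above background. The log10 ratios of Cy5 over Cy3 that the authors deposited were made by Agilent's Feature Extraction software with its own background subtraction and dye normalization, and are treated as a score, since the decimal point of some cells had moved. They served as an alternative after such cells had been scaled back, with 89 of 365 cells left out. The deposited value table holds the same log10 ratios with the sign turned and was not used further. The authors' analysis of variance was replaced by limma.

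Here, the background was corrected with normexp (offset 50), 1075 control spots were removed, the 24 channels were quantile normalized, spots flagged as outliers were left out (15 member spots), and spots of a probe were averaged. The log2(Cy3/Cy5) of 20281 probes was fitted in R 4.3.3 (limma 3.58.1) over all 12 arrays with 1 mean for each time point, eBayes and Benjamini-Hochberg adjustment over all probes, and a change was called at an adjusted p under 0.05. The script was tested on simulated data. Where a probe was not well above background on any fed array, its fold is an approximate bound, taken from Cy3 signals normalized by loess and Aquantile. The fed signal was set no lower than the dimmest signal flagged well above background on the array, and no test belongs to this fold. Dyes were not swapped, with the pool in Cy3 and the reference in Cy5 on every array. A dye bias of a probe that is the same on all arrays cancels in a change between time points. It does not cancel in a single log ratio, nor where it differs between arrays. The number of arrays and their signal over background (Cy5 medians of 1.65 to 2.11 times the background) limit the precision.

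Named with values are all members called in at least 1 contrast, textbook representatives of each compartment, and all probes of genes whose probes differ. Of the partner and marker lists, some of the genes called are named. The members and lists were chosen with earlier results of these data known. Which part of a transcript a probe matches is not given in the sources used here.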

Additional observations from a re-analysis of the deposited data

Results flagged for a closer look

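For 2 probes the change against fed was called different between 12 h and 24 h of fasting, which with a shared fed group is the difference of 24 h and 12 h itself. For Fkbp9 this difference was 0.69 on the log2 scale (limma, adjusted p = 0.0374), with all 3 pools at 24 h above all 3 at 12 h, and it was -0.24 in the Cy3 channel alone. For Xbp1 it was -3.33 (adjusted p = 0.0213), and -0.77 in the Cy3 channel alone. With 1 pool measured at 12 h, this value is a difference from a single array whose spread was taken from the other groups, and it does not show how far pools at 12 h vary.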

How the results depend on the processing

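Against fed, the values reported rest on 20 called probes (12 h), 9 (24 h) and 14 (72 h), and on 2 between 24 h and 12 h. Over all probes the same fit called 2187, 2046, 2140 and 589. In comparison, the software's own log ratio gave 9 members at 12 h (1594 of all probes). The Cy3 channel alone gave 9 at 12 h, 16 at 24 h and 7 between 24 h and 12 h (2998, 4989 and 1676 of all probes). Fits of only the 2 time points compared gave 0 at 12 h (30 at an unadjusted p under 0.05), 17 at 24 h and 1 between 24 h and 12 h. These fits called 2, 3245 and 22 of all probes, so the member counts followed the array as a whole. For 24 h against 12 h no background correction, loess, median centring and the software's log ratio each gave 0 (15, 17, 11 and 11 at an unadjusted p under 0.05), and an unadjusted p under 0.01 with 1.4-fold gave 8. Of all probes, these settings called 340, 453, 202, 249 and 1670, in the same order. Without fed replicate 3 and 12 h replicate 3 together, chosen after seeing the data, the counts were 7 (12 h), 17 (24 h) and 4 (24 h against 12 h). The same fit called 949, 3358 and 1009 of all probes. Leaving out 1 array at a time gave 5 to 28 at 12 h (5 without fed replicate 3, 10 without fed replicate 1, 28 without 12 h replicate 1), 3 to 19 at 24 h (3 without 24 h replicate 1, 4 without fed replicate 1, 5 without fed replicate 3 or 24 h replicate 2, 19 without 12 h replicate 3), 6 to 23 at 72 h (6 without 72 h replicate 1, 7 without fed replicate 3, 8 without 72 h replicate 2 or 3, 23 without 12 h replicate 3) and 0 to 4 for 24 h against 12 h (0 without 12 h replicate 3 or 24 h replicate 2 or 3, where 14, 12 and 14 had an unadjusted p under 0.05, and 4 without fed replicate 3). Array-wide calls moved too. At 12 h, 579 of all probes were called without fed replicate 3 and 4605 without 12 h replicate 1. At 24 h, 806 were called without 24 h replicate 1 and 4014 without 12 h replicate 3. At 72 h, 861 were called without 72 h replicate 1 and 3742 without 12 h replicate 3. In Cy3 alone 5 changes turned: Fkbp3 (0.12), Hspe1 (0.11) and Ppia (0.009) at 12 h, Dnajb10 at 72 h (-0.10) and Fkbp9 at 24 h against 12 h (-0.24). The causes were not tested.

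Over single probes and settings other than left-out arrays, 337 of 450 calls were kept, 108 were lost and 5 turned, and with arrays left out 408 of 581 were kept and 173 lost. The pool numbers do not pair the pools, which are of different mice. Deviations of same-numbered pools correlated between -0.301 and 0.128 over 18 pairs, and the own number gave the highest correlation in 5 of 36 cases. With the number as a replicate block, 16, 7, 13 and 2 member probes were called, beside 1245, 1525, 1701 and 380 of all probes. A block for the slide or scan date was not run, since the files used here give neither.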
